A study of Drosophila melanogaster with 8 samples.

Results

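The genes described here encode the subunits of the vacuolar ATPase of Drosophila melanogaster. They were chosen by name, as every row of the deposited gene table whose symbol starts with Vha, which gave 33 of 15182 fly genes. The libraries come from embryos at early stage 14 that carried the E10::EGFP transgene, in which the enhancer E10 drives EGFP. Eggs were collected for 1 h and aged for about 11 h at 25 °C, and the embryos were dissociated into single cells. Each of 4 independent sorts gave a library of the EGFP-positive cells (GFP-positive cells below) and a library of 50000 unselected cells of the scatter gate (all cells below). Both kinds carry the transgene, and the unselected cells include EGFP-positive ones. The design text names this background GFP-negative, whereas the sample labels, followed here, name all embryonic cells. E10 is an enhancer of ovo (shavenbaby), the regulator of the larval trichomes, and the sort takes the cells that express its EGFP reporter.

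The vacuolar ATPase is a rotary proton pump that acidifies endosomes, lysosomes and secretory vesicles, and in some insect epithelia it also energises the apical membrane. Its V1 part lies in the cytosol and hydrolyses ATP. There, A and B subunits form the catalytic head, D and F the central stalk, and C, E, G and H the peripheral parts. Its V0 part lies in the membrane and moves protons between the a subunit and a rotating ring of c and c'' subunits, with the d and e subunits attached. Most subunits of the fly pump are encoded by several paralogous genes.

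Transcript levels are given in FPKM, the deposited unit, which is scaled by transcript length and by the fragments of each library. Estimated from the steps of low values, the GFP-positive libraries held about 5600000 to 8820000 fragments and the all-cell libraries about 9910000 to 12280000. A count of 3 fragments on a 1 kb transcript then corresponds to 0.34 to 0.535 FPKM in GFP-positive and 0.244 to 0.303 FPKM in all-cell libraries, counting error only. The marker lists were chosen with earlier results of these data known. All 11 markers of epidermis and trichomes tested rose in GFP-positive cells, with summed levels of 7698 to 13080 FPKM against 545 to 1347 FPKM in all cells. They include ovo, whose enhancer drives the reporter used for the sort, so its rise is no independent check. Of 9 tracheal markers 8 rose and 0 fell. Whether the genes of this list are particular to tracheal cells was not tested. Among all genes tested 11.6% were called higher. Of the markers of other cell types, 9 of 10 for neurons, 9 of 10 for muscle and 5 of 5 for fat body fell. So did 5 of 6 for gut, 3 of 6 for hemocytes and 3 of 6 for Malpighian tubules, beside 38.7% of all genes tested. The gene srp, which fell, is on the fat body, gut and hemocyte lists and counts in each. Of 5 germ cell markers 2 fell and 1 rose. The neuron list summed to 176 to 414 FPKM in GFP-positive cells and 696 to 1393 FPKM in all cells, the muscle list to 866 to 1088 FPKM and 2458 to 3497 FPKM, and the fat body list to 67.7 to 120.3 FPKM and 489 to 1005 FPKM. Of the markers in these lists, 0 were at 0 in all 8 libraries. In such bulk samples, fewer cells of a type and less RNA per cell cannot be told apart. The part of this difference in cell makeup in the results below was not tested.

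Together the 33 genes made up 0.318% to 0.351% of the summed fly FPKM in GFP-positive libraries and 0.345% to 0.432% in all-cell libraries. The shares were lowest in GFP-positive library 1 and highest in all-cell library 4, and the groups overlapped. Each subunit had 1 gene that was the most abundant on average, called its leading gene here. In V1 these were Vha68-2 (A), Vha55 (B), Vha44 (C), Vha36-1 (D), Vha26 (E), Vha14-1 (F), Vha13 (G) and VhaSFD (H). In V0 they were Vha100-2 (a), Vha16-1 (c), VhaPPA1-1 (c''), VhaAC39-1 (d) and VhaM9.7-b (e). VhaAC45 and VhaM8.9 encode accessory proteins of the pump. VhaM8.9 is the fly counterpart of the prorenin receptor, which in flies is also known for its part in planar cell polarity.

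Of the 33 genes, 26 reached 1 FPKM in at least 4 of the 8 libraries and were tested among the 10943 genes that did so. On log2(FPKM + 1), 2 of the 26 rose and 9 fell in GFP-positive cells by limma at an adjusted threshold of 0.05, and 15 did not pass. A gene that did not pass is not shown to be at equal levels. Among all genes tested the calls came to 11.6% higher and 38.7% lower, or 50.2% in either direction. In 2 members all GFP-positive libraries lay above all all-cell libraries and in 8 they lay below, against 10.2% and 34.8% of all genes tested. The median log2 fold change of the 26 was -0.15, against -0.47 for all 10943 genes. Counts of members moved with the scaling of the libraries. With TMM-like scaling, which brings the median of all genes to -0.02, 8 members were higher and 2 lower, against 21.0% and 18.8% of all genes. With scaling by the ERCC spike-ins, which brings it to -1.26, 0 were higher and 11 lower, against 2.82% and 52.2% of all genes. The ERCC sums behind that scaling spread widely, from 22746 to 37807 FPKM in GFP-positive and from 7530 to 24702 FPKM in all-cell libraries. Under it the SE was 0.57 for Vha14-2 and 0.55 for Vha100-3, against 0.34 and 0.33 as deposited. The member median lay above that of all genes by 0.32 as deposited, 0.41 with TMM-like, 0.37 with upper quartile and 0.18 with ERCC scaling, and by 0.03 with quantile normalization. Vha68-1 and VhaM9.7-a were called lower under each of these scalings, and Vha14-2 and Vha100-3 higher under each but the ERCC one. The other 7 calls as deposited were lost under TMM-like scaling.

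**Figure D1:**
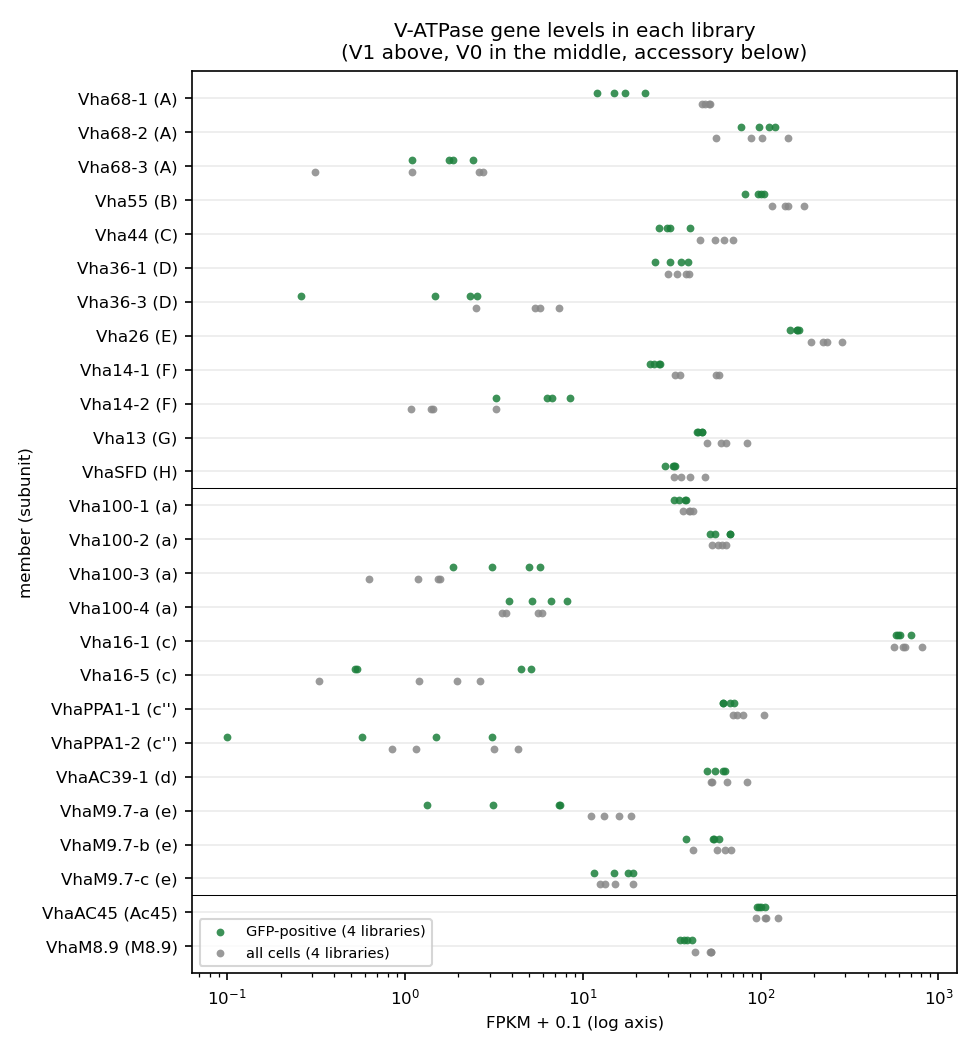
FPKM (plus 0.1, log axis) of the 26 tested V-ATPase genes, 1 point per library, with the 4 GFP-positive libraries above the 4 all-cell libraries in each row. Vha16-1 stood at 562 FPKM or more in every library, whereas Vha14-2 and Vha36-3 lay below 10 FPKM in every library.

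**Figure D2:**
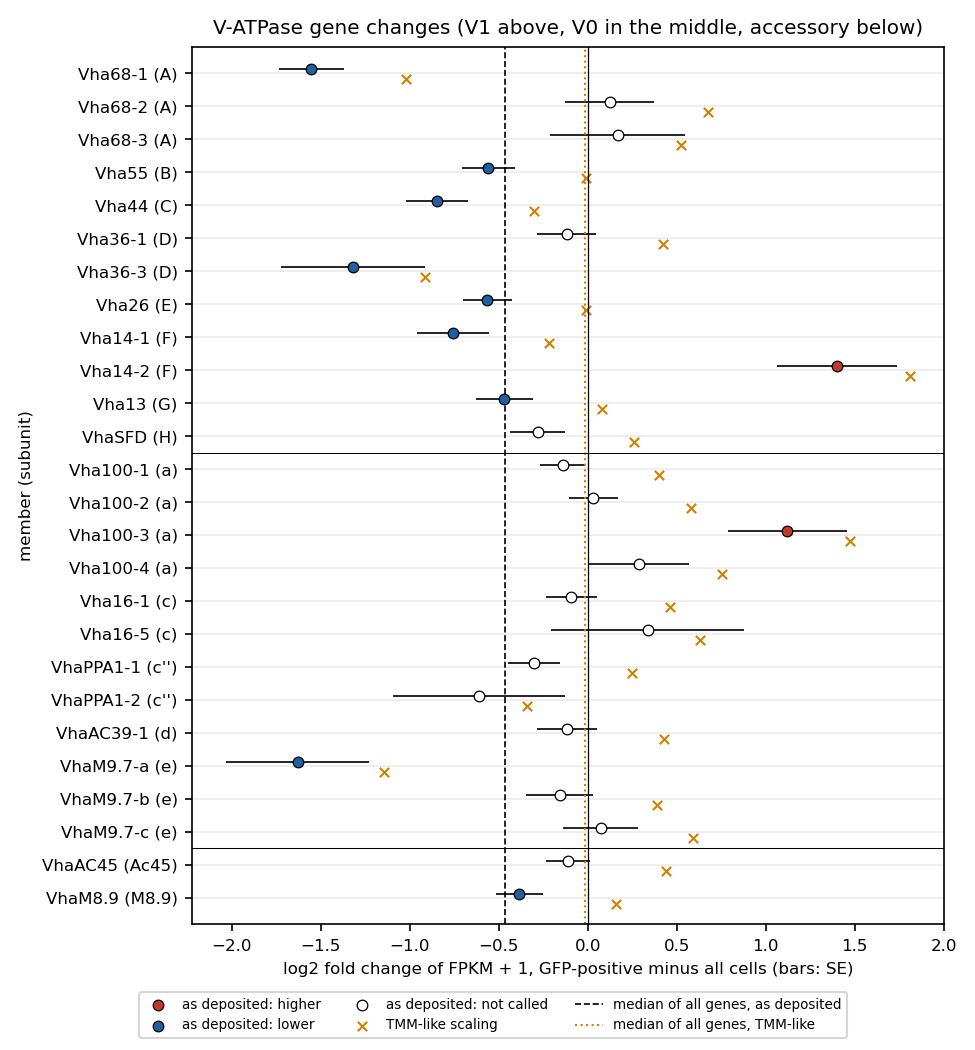
Log2 fold change of FPKM + 1, GFP-positive minus all cells, with its SE for the 26 tested V-ATPase genes as deposited (circles, coloured by call) and with TMM-like scaling (crosses). The dashed and dotted lines give the median of all genes under each scaling, -0.47 and -0.02; Vha68-1 and VhaM9.7-a lie left of both, Vha14-2 and Vha100-3 right of both.

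In the catalytic A subunit, 1 paralog was lower and the leading one was not called. Vha68-1 (CG12403, chromosome 2L, 13000765 to 13004142 on dm3) stood at 17.3, 11.9, 22.3 and 15.0 FPKM in the GFP-positive libraries of sorts 1 to 4, against 48.9, 51.6, 46.6 and 51.1 FPKM in the all-cell libraries. Every GFP-positive library lay below every all-cell library. The means were 16.6 ± 4.37 FPKM and 49.5 ± 2.31 FPKM (SD, n = 4 each), a ratio of 0.335, and limma gave a log2 fold change of -1.55 (SE 0.18, adjusted p = 7.6e-05).

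Vha68-2 (CG3762, chromosome 2L, 12974322 to 12978615) stood at 98.3, 111, 77.5 and 119.6 FPKM in GFP-positive cells and at 102, 88.1, 56.3 and 142 FPKM in all cells. These groups overlapped, and limma gave 0.12 on the log2 scale (SE 0.25, adjusted p = 0.704). With TMM-like scaling it was 0.67 and called higher (limma adjusted p = 0.0249). Vha68-3 stood at 1.69 ± 0.545 FPKM in GFP-positive cells and 1.59 ± 1.18 FPKM in all cells (SD, n = 4 each) and was not called. The 3 A genes lie in 1 stretch of chromosome 2L, with Vha68-3 170 bp from Vha68-2 and 19463 bp from Vha68-1.

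The share of Vha68-1 in the summed FPKM of the A genes was 14.7%, 9.54%, 22.1% and 10.9% in GFP-positive libraries and 31.9%, 36.7%, 45.2% and 26.1% in all-cell libraries. The groups did not overlap. The log2 ratio of Vha68-1 to Vha68-2 within a library, which does not depend on how libraries are scaled apart from its pseudocount of 1, averaged -2.56 ± 0.61 in GFP-positive and -0.88 ± 0.50 in all-cell libraries (SD, n = 4 each), a difference of -1.68. By exact two-sided permutation p was 0.0286, the lowest value possible with 4 libraries per group. Adjusted over the 11 paralog comparisons made, the exact p was 0.0786, which misses the threshold.

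Of the 8 leading V1 genes 5 fell as deposited, beside 38.7% of all genes tested, and Vha68-2, Vha36-1 and VhaSFD did not pass the test. Vha26, the E subunit of the peripheral stalk, stood at 159, 159, 146 and 164 FPKM in GFP-positive libraries and at 225, 236, 192 and 287 FPKM in all-cell libraries. All GFP-positive values lay below all all-cell values, and Vha26 fell by 0.56 on the log2 scale (SE 0.14, limma adjusted p = 0.00556). Vha55 (CG17369, chromosome 3R, 8449484 to 8453551), which encodes the B subunit, stood at 101, 105, 96.7 and 81.4 FPKM in GFP-positive libraries and at 137, 143, 115 and 175 FPKM in all-cell libraries.

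Vha55 thus did not overlap between the groups either, and it fell by 0.56 on the log2 scale (SE 0.15, limma adjusted p = 0.00936, or 0.0724 without sort 4). With TMM-like scaling both Vha26 and Vha55 stood at -0.01 and were not called. Vha44, the C subunit, which links the 2 parts of the pump, stood at 26.9, 29.5, 30.9 and 40.0 FPKM in GFP-positive libraries and at 55.4, 62.0, 45.6 and 69.6 FPKM in all-cell libraries. It had the largest fall of the leading genes, at -0.85 (SE 0.17, limma adjusted p = 0.00209). Its locus overlaps that of Hmgs by 548 bp. Hmgs, which encodes the HMG-CoA synthase of the mevalonate pathway, moved the other way, at 147 ± 30.4 FPKM in GFP-positive and 40.1 ± 10.4 FPKM in all cells (SD, n = 4 each).

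Vha13, the G subunit, stood at 44.0, 46.6, 44.1 and 47.0 FPKM in GFP-positive libraries and at 64.1, 49.7, 59.6 and 84.1 FPKM in all-cell libraries. The groups did not overlap, and the fall of -0.47 was called (SE 0.16, limma adjusted p = 0.0306), with a sign that turned to 0.08 under TMM-like scaling. It was lost in 8 of 12 fits that left out a library or a sort, with limma adjusted p-values of 0.0143 to 0.118 over the 12. It held without GFP-positive library 4, all-cell library 2, all-cell library 3 or sort 2. VhaSFD, the H subunit, averaged 31.7 ± 1.80 FPKM in GFP-positive and 39.1 ± 6.84 FPKM in all cells (SD, n = 4 each) and was not called (log2 fold change -0.28, limma adjusted p = 0.145). Its locus lies within that of CG31782.

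The D and F subunits of the central stalk each had 2 or more paralogs at unequal levels. Vha36-1 averaged 32.6 ± 5.88 FPKM in GFP-positive and 35.3 ± 4.31 FPKM in all cells (SD, n = 4 each), with a log2 fold change of -0.12 (limma adjusted p = 0.58). Vha36-3 (CG8310, chromosome X, 2473277 to 2474330) stood at 2.44, 2.23, 1.38 and 0.162 FPKM in GFP-positive libraries and at 7.28, 5.69, 2.42 and 5.27 FPKM in all-cell libraries. GFP-positive library 1 lay just above all-cell library 3, so the groups overlapped, yet the GFP-positive library was the lower one in 4 of 4 sorts. The fall was called at -1.32 (SE 0.40, limma adjusted p = 0.0181). That call was lost in 3 of 12 fits that left out a library or a sort, those without all-cell library 1, sort 2 or sort 4, with adjusted p-values up to 0.0821. GFP-positive library 4 stood below 3 fragments on 1 kb.

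In the F subunit the leading gene was lower and its paralog higher. Vha14-1 stood at 26.7, 23.9, 27.2 and 25.0 FPKM in GFP-positive libraries and at 34.9, 32.8, 58.5 and 56.0 FPKM in all-cell libraries. The GFP-positive values lay close together and below all others, and Vha14-1 fell by 0.76 on the log2 scale (SE 0.20, limma adjusted p = 0.00932, or 0.055 without sort 4). Vha14-2 (CG1076, chromosome 3R, 1948314 to 1950127) stood at 6.65, 6.19, 8.34 and 3.15 FPKM in GFP-positive libraries and at 1.35, 1.3, 0.977 and 3.14 FPKM in all-cell libraries. In sort 4 the 2 values were nearly equal, whereas in the other 3 sorts the GFP-positive library was the higher one by far. By these gene values Vha14-2 rose by 1.4 on the log2 scale (SE 0.34, limma adjusted p = 0.00539). In GFP-positive libraries 1 and 2 its listed isoforms fell far short of the gene values of 6.65 and 6.19 FPKM. There Vha14-2-RA stood at 1.35 and 1.12 FPKM, Vha14-2-RC at 1.33 and 1.38 FPKM and Vha14-2-RB at 0. In the other libraries the isoforms made up the gene value. Vha14-2-RA, the isoform tested, was not called (limma adjusted p = 0.179). The cause of this gap was not tested.

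The share of Vha14-2 in the summed FPKM of the F genes was 19.9%, 20.6%, 23.4% and 11.2% in GFP-positive libraries and 3.71%, 3.82%, 1.64% and 5.31% in all-cell libraries. The log2 ratio of Vha14-2 to Vha14-1 was higher by 2.15 in GFP-positive libraries, the widest difference of the 11 paralog comparisons by gene values. Both the shares and this ratio rest on the gene values of Vha14-2, which its isoforms do not account for in GFP-positive libraries 1 and 2. The exact permutation test gave p = 0.0286 (adjusted p = 0.0786 over the 11 comparisons). For the ratio of Vha36-3 to Vha36-1 the difference was -1.20, with the same exact permutation p-values. In the authors' deposited table, Vha14-2 had a q-value under 0.05 in 3 of the 4 sorts, of 0.00804, 0.0264 and 0.00228 in sorts 1 to 3 and of 0.998 in sort 4. The q-values of the other members called by limma passed less often. Those of Vha68-1, VhaM9.7-a and Vha100-3 were under 0.05 in 2 sorts, and those of Vha55 and Vha36-3 in 1. For Vha44, Vha26, Vha14-1, Vha13 and VhaM8.9 the count was 0 sorts.

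**Figure D3:**
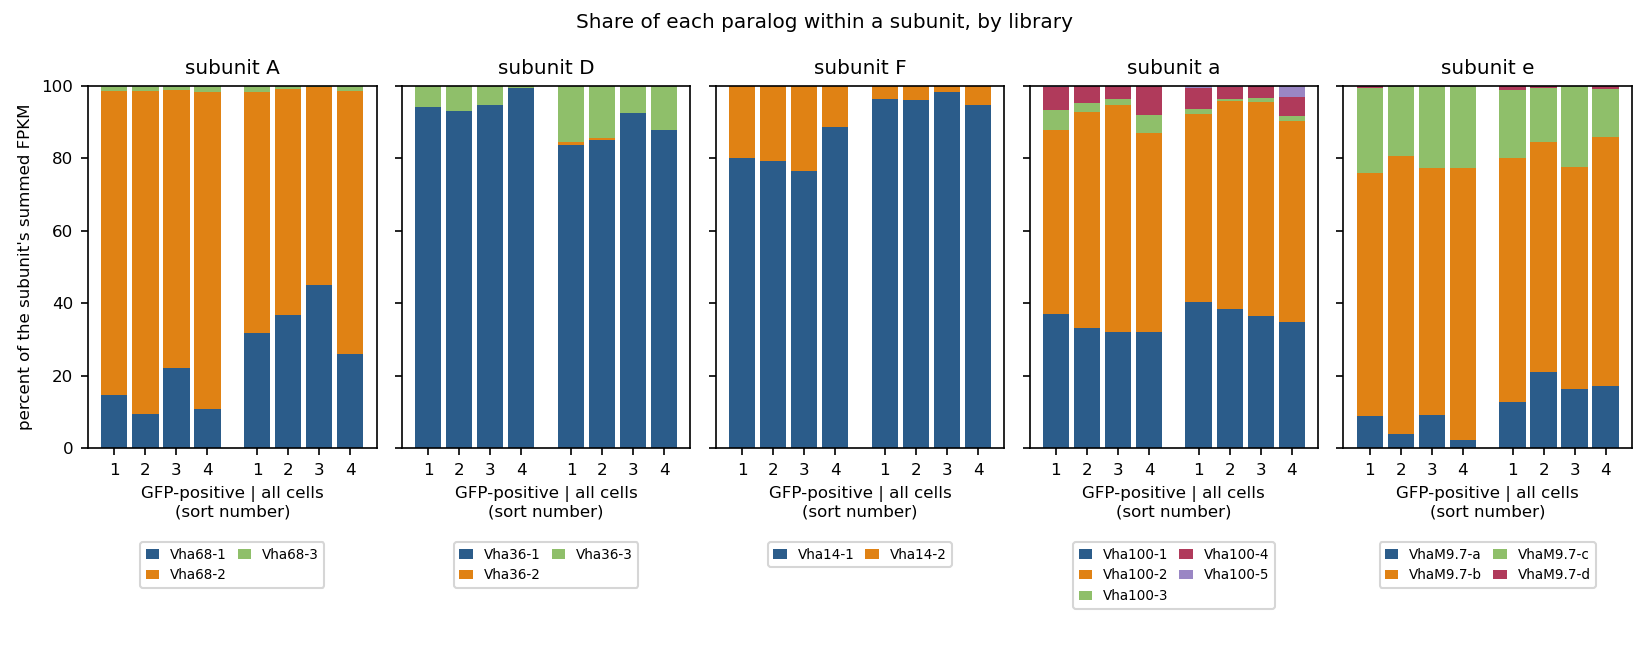
Percent of each subunit's summed FPKM contributed by each paralog, 1 bar per library, with the 4 GFP-positive libraries left of the 4 all-cell libraries, for subunits A, D, F, a and e. Vha68-1 took 9.54% to 22.1% of subunit A in GFP-positive and 26.1% to 45.2% in all-cell libraries, and Vha14-2 took 11.2% to 23.4% and 1.64% to 5.31% of subunit F.

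The leading V0 genes did not pass the test as deposited. Vha16-1, whose product forms the proton-carrying c ring, was the most abundant member, at percentile 99.0 to 99.3 of fly genes by library. It stood at 595, 609, 573 and 697 FPKM in GFP-positive libraries and at 632, 649, 562 and 810.1 FPKM in all-cell libraries. The groups overlapped widely, at -0.09 on the log2 scale (SE 0.14, limma adjusted p = 0.614). VhaPPA1-1, VhaAC39-1 and VhaM9.7-b, at means of 51.2 to 65.3 FPKM in GFP-positive and 57.5 to 81.6 FPKM in all cells, had log2 fold changes of -0.30, -0.12 and -0.16. With TMM-like scaling Vha16-1 (0.46, limma adjusted p = 0.0196) and VhaAC39-1 (0.43, limma adjusted p = 0.0478) were called higher.

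The a subunit had 5 genes, 2 of them at substantial levels in both groups. Vha100-2 averaged 60.5 ± 8.01 FPKM in GFP-positive and 58.9 ± 4.35 FPKM in all cells (SD, n = 4 each), with a log2 fold change of 0.03 (limma adjusted p = 0.863). Its locus shares 2160 bp with koko, which rose by 0.89. Vha100-1, known in flies for its role at synapses and in photoreceptors, averaged 35.7 ± 2.64 FPKM in GFP-positive and 39.4 ± 2.22 FPKM in all cells (SD, n = 4 each). It differed by -0.14 on the log2 scale (SE 0.13, limma adjusted p = 0.384), beside a median of -2.24 for the 10 neuron markers tested. Its isoforms differed. Vha100-1-RC averaged 0.727 ± 1.45 FPKM in GFP-positive and 7.12 ± 6.32 FPKM in all cells (SD, n = 4 each). That isoform was called lower (log2 fold change -2.16, limma adjusted p = 0.0311), and Vha100-1-RD, -RE, -RG, -RH and -RI were not called. Vha100-1-RA, not tested, stood at 0 in the GFP-positive libraries and at 4.92, 4.94, 0.00753 and 0 FPKM in all-cell libraries 1 to 4. The share of Vha100-1 among the a genes was 33.7% ± 2.32 in GFP-positive and 37.5% ± 2.35 in all-cell libraries (SD, n = 4 each), and its ratio to Vha100-2 differed by -0.17 (exact permutation p = 0.229). Vha100-4, next to Vha100-2 at 513 bp, averaged 5.88 ± 1.86 FPKM in GFP-positive and 4.57 ± 1.24 FPKM in all cells (SD, n = 4 each) and was not called as deposited. It was called higher with TMM-like scaling (0.75, limma adjusted p = 0.0209) and quantile normalization (0.79, limma adjusted p = 0.012).

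As deposited, Vha100-3 was the a gene that rose. It stood at 5.63, 3.00, 1.76 and 4.89 FPKM in GFP-positive libraries and at 1.44, 0.529, 1.09 and 1.47 FPKM in all-cell libraries. The groups did not overlap, and Vha100-3 rose by 1.12 on the log2 scale (SE 0.33, limma adjusted p = 0.0163). The call was lost in 4 of 12 fits that left out a library or a sort (adjusted p up to 0.0785), those without all-cell library 2 or sorts 1, 2 or 4. The locus of Vha100-3 lies wholly within that of sano, a gene at 105 ± 8.25 FPKM in GFP-positive and 35.5 ± 6.30 FPKM in all cells (SD, n = 4 each) that rose by 1.55 (SE 0.15, limma adjusted p = 2.7e-05). The use of strand by the authors is not given in the sources used here, so fragments of the 2 genes may not be fully separated. The part of sano in the rise of Vha100-3 was not tested.

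Among the 4 genes of the small e subunit, VhaM9.7-a (CG1268, chromosome 3L, 4262700 to 4263464) fell. It stood at 7.28, 3.05, 7.37 and 1.23 FPKM in GFP-positive libraries and at 13.1, 18.6, 11.1 and 16 FPKM in all-cell libraries. The groups did not overlap, the GFP-positive values of sorts 2 and 4 being the lowest, and VhaM9.7-a fell by 1.63 on the log2 scale (SE 0.40, limma adjusted p = 0.00614). Without sort 2 its adjusted p was 0.0565. Its share of the e genes was 6.17% ± 3.49 in GFP-positive and 16.9% ± 3.30 in all-cell libraries (SD, n = 4 each). The ratio to VhaM9.7-b differed by -1.47 (exact permutation p = 0.0286, adjusted p = 0.0786 over the 11 comparisons).

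VhaM9.7-c averaged 15.8 ± 3.4 FPKM in GFP-positive and 14.9 ± 2.92 FPKM in all cells (SD, n = 4 each) and was not called. Its locus lies within those of Teh2 and CG18675, which had log2 fold changes of -1.46 and -1.75. In the c and c'' subunits, Vha16-5 averaged 2.57 ± 2.48 FPKM in GFP-positive and 1.43 ± 0.991 FPKM in all cells, and VhaPPA1-2 averaged 1.21 ± 1.31 FPKM and 2.28 ± 1.66 FPKM (SD, n = 4 each). Their spread was about as large as their means, and neither was called.

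Of the 11 paralog comparisons, 4 had ratios that did not overlap between the groups (Vha68-1, Vha36-3, Vha14-2 and VhaM9.7-a, each against the leading gene of its subunit) and 0 passed after adjustment. At an unadjusted exact p under 0.05 there were 4, with the 8 libraries taken as unpaired. With 4 against 4 libraries the exact test cannot go below p = 0.0286. With the libraries paired by sort, an exact sign-flip test cannot go below p = 0.125, so 0 ratios can reach 0.05. Among the other 7 the difference ranged from -0.31 to 1.09, with the highest for Vha100-3 against Vha100-2 (exact permutation p = 0.0857).

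The accessory genes differed in their calls, a difference between them that was not tested. VhaM8.9 stood at 41.2, 37.0, 35.2 and 38.5 FPKM in GFP-positive libraries and at 52.0, 42.8, 52.5 and 52.6 FPKM in all-cell libraries. The groups did not overlap, and the fall of -0.38 was called (SE 0.13, limma adjusted p = 0.031), with a sign that turned to 0.16 under TMM-like scaling. It was lost in 9 of 12 fits that left out a library or a sort (limma adjusted p up to 0.114) and held without GFP-positive library 1, GFP-positive library 4 or all-cell library 2. VhaAC45 averaged 99.4 ± 4.17 FPKM in GFP-positive and 108 ± 12.8 FPKM in all cells (SD, n = 4 each), with a log2 fold change of -0.11 (limma adjusted p = 0.47).

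The V1 and V0 genes were set side by side. As deposited, of 12 V1 genes tested 7 were called lower and 1 higher, and of 12 V0 genes 1 was called lower and 1 higher, beside 38.7% and 11.6% of all genes. The difference between these counts was not tested. With TMM-like scaling the same sets had 1 gene each called lower, and 3 V1 and 4 V0 genes called higher. Among all genes that scaling called 18.8% lower and 21.0% higher. Among leading genes, 5 of 8 in V1 and 0 of 5 in V0 were called lower. With TMM-like scaling 2 of each were called higher and 0 lower. The mean log2(FPKM + 1) of the 8 leading V1 genes minus that of the 5 leading V0 genes is a ratio within a library. It was -0.80, -0.82, -0.95 and -0.71 in the GFP-positive libraries and -0.52, -0.53, -0.57 and -0.42 in the all-cell libraries of sorts 1 to 4. The groups did not overlap, and the GFP-positive value was lower within each sort, by 0.27 to 0.38 log2 units. This measure was chosen after the values of the members had been seen and is given without a test.

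**Figure D4:**
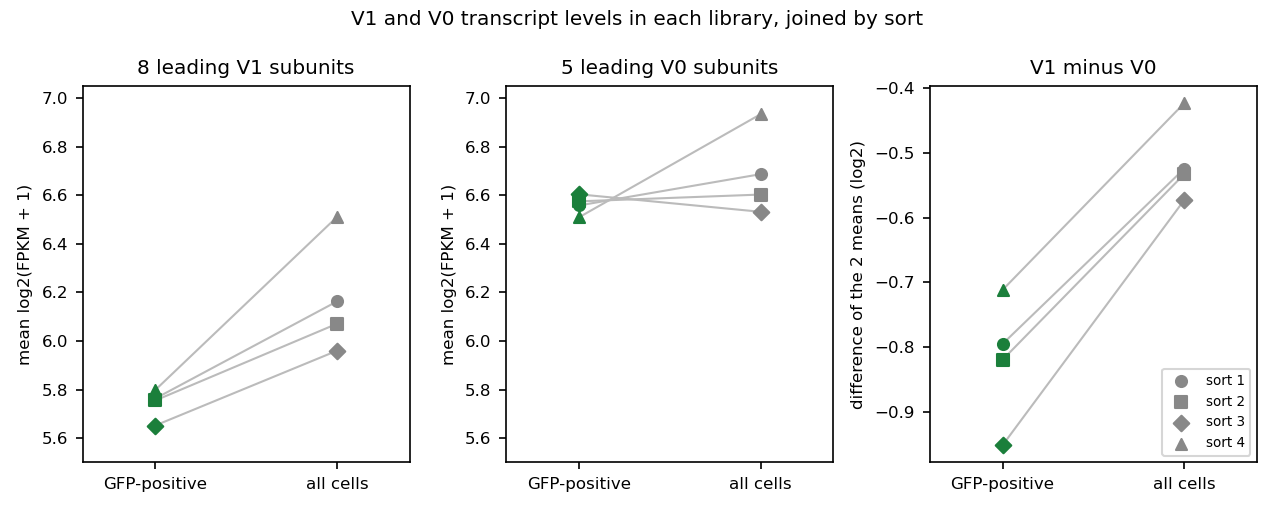
Mean log2(FPKM + 1) of the 8 leading V1 genes (left), of the 5 leading V0 genes (middle) and their difference (right) in GFP-positive and all-cell libraries, with 1 marker shape and 1 joining line per sort. The V1 mean and the difference were lower in GFP-positive cells in 4 of 4 sorts, whereas the V0 mean of sort 3 was not.

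The deposited isoform table lists 65 isoforms of the 33 genes, of which 46 were tested; limma called 1 higher and 11 lower, against 9.28% and 27.2% of all isoforms tested. In Vha44 the most abundant isoform, Vha44-RA, fell to 20.9 ± 1.98 FPKM in GFP-positive cells, against 46.9 ± 10.8 FPKM in all cells (SD, n = 4 each; log2 fold change -1.11, limma adjusted p = 0.0018). Vha44-RF fell as well, at 2.18 ± 2.40 FPKM in GFP-positive and 7.10 ± 1.38 FPKM in all cells (SD, n = 4 each). Its log2 fold change was -1.69 (limma adjusted p = 0.035). Vha44-RB had 6.41 ± 3.58 FPKM in GFP-positive and 4.09 ± 2.74 FPKM in all cells (SD, n = 4 each) and was not called.

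In Vha55, isoforms Vha55-RB (-0.77) and Vha55-RC (-0.62) fell, while Vha55-RA stood at 22.4 ± 4.61 FPKM in GFP-positive and 24.9 ± 4.30 FPKM in all cells (SD, n = 4 each) and was not called. The difference between these isoforms was not tested. In Vha26 the abundant isoform Vha26-RB fell by 0.59 on the log2 scale, and in Vha16-1 none of the 4 isoforms was called (limma adjusted p from 0.245 to 0.789). The listed isoforms of Vha14-2 accounted for as little as 40.3% of the gene value in a library, and those of the other genes listed above 0 for 100% of it, so the isoforms of Vha14-2 are not described further. Vha68-2-RB stood at 54.8 FPKM in GFP-positive library 4, nearly as high as Vha68-2-RA there (59.0 FPKM), but at no more than 7.35 FPKM in the other 7 libraries.

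The remaining 7 genes were too low to be tested. Vha16-2 was listed at 0 in all 8 libraries and Vha16-3 in 7, with 0.161 FPKM in all-cell library 4. Vha36-2, VhaAC39-2 and VhaM9.7-d reached at most 0, 0.339 and 0.337 FPKM in GFP-positive cells and 0.334, 0.151 and 1.1 FPKM in all cells. Vha16-4 ranged from 0 to 1.19 FPKM in GFP-positive cells and from 0 to 1.34 FPKM in all cells. Vha100-5 stood at 0 to 0.361 FPKM in GFP-positive cells and at 0.119 to 0.643 FPKM in all-cell libraries 1 to 3, but at 3.09 FPKM in all-cell library 4. In the authors' deposited table its q-value was 0.0188 in sort 4 and 1 in the other 3. That table gives q-values under 0.05 to 2, 4, 1 and 5 of the 33 genes in sorts 1 to 4, against 14.7%, 14.5%, 11.2% and 12% of all fly genes.

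Other genes around the pump were counted by lists. Of 11 genes of V-ATPase assembly and of its signalling partners at the lysosome, 4 fell, 0 rose and 7 did not pass (median -0.35), beside 38.7% lower and 11.6% higher among all genes tested. In fits that left out a library or a sort 1 to 4 of them were called lower, with 2 without GFP-positive library 1 or 4 or all-cell library 1 or 4, and 1 without sort 1, 2 or 4. CG5969, the fly counterpart of the assembly factor VMA21, stood at 8.40 ± 5.72 FPKM in GFP-positive and 17.6 ± 3.20 FPKM in all cells (SD, n = 4 each; log2 fold change -1.15, limma adjusted p = 0.0169). Rbcn-3B, of the complex that joins V1 to V0, fell by 0.57 at the edge of the threshold (limma adjusted p = 0.0495; -0.06 with TMM-like scaling). CG14184, a subunit of the Ragulator complex, fell by 1.13, and the amino acid transporter path by 0.42, though path was at 0.12 with TMM-like scaling. With TMM-like scaling 2 of the list were called higher and 1 lower.

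Of 17 lysosomal genes tested 6 rose, 2 fell and 9 did not pass (median 0.14), beside 11.6% higher and 38.7% lower among all genes tested. Without sort 3 the count called higher was 3. The count called lower was 1 without GFP-positive library 2 or 3, all-cell library 1 or sort 1, 2 or 3, and 0 with TMM-like, upper quartile or quantile scaling. The cathepsin B gene CG10992 stood at 238 ± 28.1 FPKM in GFP-positive and 128 ± 15.4 FPKM in all cells (SD, n = 4 each; log2 fold change 0.89, limma adjusted p = 3.6e-04; -0.05 with ERCC scaling). The beta-galactosidase gene Ect3 rose by 1.4 and the hexosaminidase gene Hexo1 by 1.37, while Ppt1, a palmitoyl-protein thioesterase, fell by 1.05. With ERCC scaling 0 of the list were called higher and 2 lower.

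The mitochondrial ATP synthase is a rotary relative of the pump that makes ATP. All 13 of its genes tested fell (median -1.31), beside 38.7% lower among all genes tested. With TMM-like scaling 11 fell, beside 18.8% of all genes. Its alpha subunit gene blw (bellwether) stood at 120.1 ± 8.76 FPKM in GFP-positive and 370.0 ± 77.2 FPKM in all cells (SD, n = 4 each; log2 fold change -1.59, limma adjusted p = 3.1e-05). CG1746 fell by 1.68 and ATPsyn-beta, the catalytic subunit, by 1.49. The median of the 26 V-ATPase genes was -0.15, and that of all genes tested was -0.47.

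Of 14 other genes of epithelial ion transport 5 rose, 5 fell and 4 did not pass (median -0.28), beside 11.6% higher and 38.7% lower among all genes tested. Those called higher were 3 without GFP-positive library 1 or 2, all-cell library 2 or 3 or sort 2 or 4, and 2 without sort 1. Those called lower were 3 without GFP-positive library 1, 2 or 4, all-cell library 4 or sort 1, 2 or 4, and 2 with TMM-like scaling. The carbonic anhydrase CAH2 stood at 52.9 ± 20.01 FPKM in GFP-positive and 6.04 ± 2.68 FPKM in all cells (SD, n = 4 each; log2 fold change 2.95, limma adjusted p = 6.0e-05), and CAH1 rose by 1.32. nrv3, a beta subunit of the sodium pump, fell by 2.96 and the potassium-chloride cotransporter kcc by 1.64. With ERCC scaling 1 of the list was called higher and 6 lower.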

How the data were processed

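RNA of 8 libraries, 4 per group, was sequenced after amplification of 5 ng of total RNA with ERCC spike-ins, per the labels' protocols. The authors deposited FPKM per gene and per isoform, per the file headers, for which the submitters' processing notes name dm3, TopHat 1.4.0 and the Cufflinks 1.3.0 suite with Cuffdiff 1.3.0. Cuffdiff q-values for 1 library against 1 within each sort are also deposited, per the file headers. Parameters, strand use and annotation release: not given in the sources used here. Coordinates were converted from 0-based starts.

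FPKM values are not counts, so limma 3.58.1 (R 4.3.3) was fitted with a mean-variance trend to log2(FPKM + 1), two-sided, over all fly genes at 1 FPKM or more in at least 4 libraries, with Benjamini-Hochberg adjustment over all of them. This scale understates changes of low genes. The test was checked on simulated data, where it left part of the changed genes uncalled. Paralogs were compared by exact permutation. Every gene whose symbol starts with Vha is named; from each list up to 4 called genes with the largest change, and any gene overlapping a member, may be named. Members and lists were chosen with earlier results of these data known. Beside those named in the report, lists for trachea, hemocytes, gut, Malpighian tubules and germ cells were counted.

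The labels number the sorts, so the numbers pair the libraries. Deviations from the group means correlated by 0.439, 0.105, 0.411 and 0.166 between libraries of a sort. The highest correlations of these GFP-positive libraries with an all-cell library of another sort were 0.274, 0.0371, 0.15 and -0.0278. Alternatives were the pseudocount, the filter, 4 scalings, the sort as a block and leaving out libraries or sorts. Depth was estimated from single-isoform loci of 300 to 1500 bp. A Release 6 gene table was used only to match list names; 1 name, Irk1, was not matched. No per-sample column was left unused (0).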

Additional observations from a re-analysis of the deposited data

Results flagged for a closer look

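In 2 of 52 groups of 4 libraries (26 members in 2 cell populations), 1 library stood apart from the other 3 by more than the 95% critical value of Dixon's test; chance flags about 1 in 20 groups. Vha14-2 stood at 3.14 FPKM in all-cell library 4, against 0.977 to 1.35 FPKM in the other all-cell libraries; the GFP-positive library of that sort, at 3.15 FPKM, was the lowest of its group. Without all-cell library 4 the log2 fold change of Vha14-2 was 1.62 (limma adjusted p = 0.00371), against 1.4 with it. VhaM8.9 stood at 42.8 FPKM in all-cell library 2, against 52.0 to 52.6 FPKM in the others. Without that library the log2 fold change of VhaM8.9 was -0.45 (limma adjusted p = 0.025), against -0.38 with it.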

How the results depend on the processing

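Scaling decided most calls of the members; the cause was not tested. The 2 members called higher as deposited became 8 with TMM-like scaling and 0 with ERCC scaling or a minimum of 5 FPKM, and 1 to 2 when a library or sort was left out. The 9 called lower became 2 with TMM-like scaling, 4 with upper quartile scaling and 5 with quantile normalization, and 4 to 9 in the leave-out fits. Genes called higher numbered 1265 of all tested, 2299 with TMM-like scaling, 2063 with quantile normalization and 309 with ERCC scaling (893 to 1259 in leave-out fits). Lower genes numbered 4233, 2058 with TMM-like scaling and 2515 with quantile normalization (2978 to 4411 in leave-out fits). Isoforms called higher were 1 as deposited, 2 with TMM-like scaling and 0 to 1 in leave-out fits; those called lower were 11, 3 and 6 to 10. The sort as a replicate block gave 2 higher and 9 lower members (1442 and 4884 of all genes) and changed no member call. For the 11 paralog ratios the count passing was 0 throughout, which says nothing of stability, since with 4 ratios at the smallest exact p the adjusted p cannot pass.

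The members whose log2 fold change turned sign were not called as deposited, except Vha13 and VhaM8.9. With TMM-like scaling these were Vha100-1 (0.40), Vha16-1 (0.46), VhaPPA1-1 (0.25), VhaAC39-1 (0.43), VhaM9.7-b (0.39), Vha36-1 (0.42), Vha13 (0.078), VhaSFD (0.26), VhaAC45 (0.44) and VhaM8.9 (0.16). With upper quartile scaling these were Vha100-1 (0.18), Vha16-1 (0.24), VhaPPA1-1 (0.023), VhaAC39-1 (0.21), VhaM9.7-b (0.17), Vha36-1 (0.20), VhaSFD (0.039) and VhaAC45 (0.21), and with quantile normalization Vha100-1 (0.079), VhaAC39-1 (0.0014) and Vha36-1 (0.12). With ERCC scaling they were Vha100-2 (-0.90), Vha100-4 (-0.52), Vha16-5 (-0.21), VhaM9.7-c (-0.82), Vha68-2 (-0.81) and Vha68-3 (-0.40). In leave-out fits Vha100-2 ranged from -0.023 to 0.10, Vha16-1 from -0.17 to 0.0088, Vha16-5 from -0.020 to 0.67, VhaAC39-1 from -0.24 to 0.039, VhaM9.7-b from -0.33 to 0.029, VhaM9.7-c from -0.021 to 0.21, Vha68-2 from -0.11 to 0.33 and Vha68-3 from -0.15 to 0.38. The log2 ratio change Vha68-3 to Vha68-2 was -0.0777 with a pseudocount of 5 and -0.039 to 0.19 in leave-out fits. The log2 ratio change VhaPPA1-2 to VhaPPA1-1 was 0.064 with a pseudocount of 5 and -0.64 to 0.010 in leave-out fits. Depth limits members near 1 FPKM, where few fragments stand behind a value.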

Other observations

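The remaining marker lists gave these counts, with values as log2 fold changes. Of 9 tracheal genes 8 rose and 0 fell (median 1.55). With ERCC scaling 3 of them were called higher, beside 2.82% of all genes. The chitin deacetylase gene serp stood at 989 ± 184 FPKM in GFP-positive and 200 ± 76.6 FPKM in all cells (SD, n = 4 each). The genes verm, uif and pot rose by 2.21, 2.23 and 1.59. Whether these 4 genes are particular to the trachea was not tested. Of 6 gut markers 5 fell and 0 rose (median -1.83), with Ptx1 at -2.20. Of 6 hemocyte markers 3 fell, 0 rose and 3 did not pass. Those that fell were gcm at -2.56, nimC4 at -1.57 and srp at -0.99, and srp is also on the fat body and gut lists. Whether these genes are particular to hemocytes was not tested. With TMM-like scaling 2 of the hemocyte list were called lower and 1 higher, beside 18.8% and 21.0% of all genes. Of 6 Malpighian tubule markers 3 fell and 0 rose, with Kr at -1.71. Of 5 germ cell markers 2 fell (vas at -2.64, zpg at -1.76) and 1 rose, tud at 0.64 (-0.30 with ERCC scaling). The background calls were 38.7% lower and 11.6% higher.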
